A study of Mus musculus with 8 samples.

Results

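The cytosolic ribosomal protein genes are described here in liver macrophages of C57BL/6 mice. Genes were taken by symbol, as an Rpl or Rps symbol followed only by a number and an optional a or x, together with Rplp0, Rplp1, Rplp2 and Rpsa. This rule found 76 of the 24786 gene symbols in the files, 46 for the large subunit and 30 for the small subunit. All 76 passed the filter on low counts, which left 15254 genes. Polyadenylated RNA was sequenced in 8 libraries, 2 per group, from Kupffer cells, which reside in the liver's sinusoids, and from monocyte-derived macrophages (MoM). Each subset came from dnTGFβRII transgenic mice (TG) and from wild-type mice (WT), so the 4 groups are Kupffer TG, Kupffer WT, MoM TG and MoM WT. The transgene encodes a truncated type II receptor for TGF-β that blocks signalling. It is known to be expressed from the Cd4 promoter in T cells, not in macrophages, and the series' title calls the mice a cholangitis model. The labels used here state neither age nor sex. They do not say that the libraries of a group came from separate animals, so p-values measure the spread between these libraries, which may be technical.

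The labels were set against marker genes. Summed over 11 Kupffer cell markers, the Kupffer libraries held 15580 to 32450 CPM, counts scaled to library size, and the MoM libraries 332 to 9833 CPM, the highest being MoM WT replicate 1. Over 12 monocyte markers the Kupffer libraries held 170 to 481 CPM and the MoM libraries 921 to 5603 CPM. Kupffer TG replicate 2 had the lowest Kupffer marker sum of its subset and the highest endothelial sum of all, 7132 CPM, and MoM WT replicate 1 the next highest, 4545 CPM. Both libraries stand apart in these sums, and the main results are given with and without them. Other libraries were high in markers of other cells, such as MoM TG replicate 2 with a neutrophil sum of 3701 CPM. Tgfbr2, the mouse gene of the type II receptor, had 318.6 and 289.4 CPM in Kupffer TG against 349.2 and 345.1 CPM in Kupffer WT. In MoM it had 249.0 and 178.1 CPM in TG against 231.9 and 173.9 CPM in WT. These counts do not separate the transgene from the endogenous gene. In bulk RNA, fewer cells of a type and less RNA per cell cannot be told apart.

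The cytosolic ribosome is built from ribosomal RNA and a fixed set of proteins, and decodes mRNA on its small subunit while the large subunit joins amino acids. A protruding stalk of the large subunit, made of the products of Rplp0, Rplp1 and Rplp2, recruits the elongation and initiation factors that act with GTP. The mRNAs of vertebrate ribosomal proteins belong to the TOP class: they begin with a cytosine followed by a run of pyrimidines, and through this run their translation is tuned by mTOR and the RNA-binding protein Larp1. Cells use this to match ribosome production to growth and nutrients.

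The sequences below show a pyrimidine run near an annotated start of 8 members. They were chosen because the letters CTTTCC begin within 5 bases of that start. The start itself is not marked. CTTTCC begins at base 4 in Rpl18 and at -5, before the start, in Rpl35, so the windows do not show which base begins the mRNA. Each is 30 bases of the gene's own strand, 5′ to 3′, from RefSeq on GRCm38.p6, with CTTTCC in capitals.
Rpl15: aaagccttcttcCTTTCCtctggcggcagc
Rpl18: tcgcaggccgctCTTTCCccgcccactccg
Rpl28: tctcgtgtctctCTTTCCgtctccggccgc
Rpl35: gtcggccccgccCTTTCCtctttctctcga
Rpl35a: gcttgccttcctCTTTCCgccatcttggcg
Rpl38: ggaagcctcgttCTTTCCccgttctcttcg
Rps10: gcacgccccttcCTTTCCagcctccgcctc
Rps27: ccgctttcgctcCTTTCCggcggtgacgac
They lie at chr14:18270965-18270994 (minus strand) for Rpl15, chr7:45718062-45718091 (plus) for Rpl18, chr7:4792955-4792984 (plus) for Rpl28, chr2:39005119-39005148 (minus) for Rpl35, chr16:33056472-33056501 (plus) for Rpl35a, chr11:114668568-114668597 (plus) for Rpl38, chr17:27635223-27635252 (minus) for Rps10 and chr3:90213630-90213659 (minus) for Rps27. In every one the capitals sit within or beside a longer stretch of C and T.

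Of the 76 members, 56 had an entry in the RefSeq table of 300-base promoter windows. CTTTCC on the gene's strand within 50 bases of the start was present in 18 of these 56 (32.1%) and in 5.43% of 27025 genes of the table. CCGGAAG, the core bound by ETS factors such as Gabpa, was searched on both strands of the whole window and found in 23 of 56 members (41.1%) against 9.93% of genes. CACGTG, the E-box bound by Myc and Max, was found in 6 of 56 members (10.7%) against 8.09% of genes; it reads the same on both strands. TATAAA on the gene's strand in the 50 bases before the start was found in 0 of 56 members against 3.15% of genes. CTTTCC and CCGGAAG can share the letters CC where they adjoin, and a match describes letters only. The median log2 fold change of MoM over Kupffer cells, described next, was 0.83 for members with CTTTCC near the start and 0.87 for members without, and 0.80 with CCGGAAG against 0.88 without.

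The members took a larger share of the RNA in MoM than in Kupffer cells. In Kupffer WT the 76 genes held 1.100% and 0.969% of all counts, and in Kupffer TG 1.211% and 1.282%. In MoM WT they held 2.173% and 2.675%, and in MoM TG 2.575% and 2.106%. The lowest MoM library lay above the highest Kupffer library, so the subsets did not overlap, while the genotypes overlapped within MoM. The group means were 1.03% ± 0.0928 for Kupffer WT, 1.25% ± 0.0502 for Kupffer TG, 2.42% ± 0.355 for MoM WT and 2.34% ± 0.332 for MoM TG (SD, n = 2 each). The MoM mean was 2.34 times the Kupffer mean in WT and 1.88 times in TG. Library totals were 26190194 to 30308132 counts, and each member had 226 to 43419 counts in every library.

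**Figure D1:**
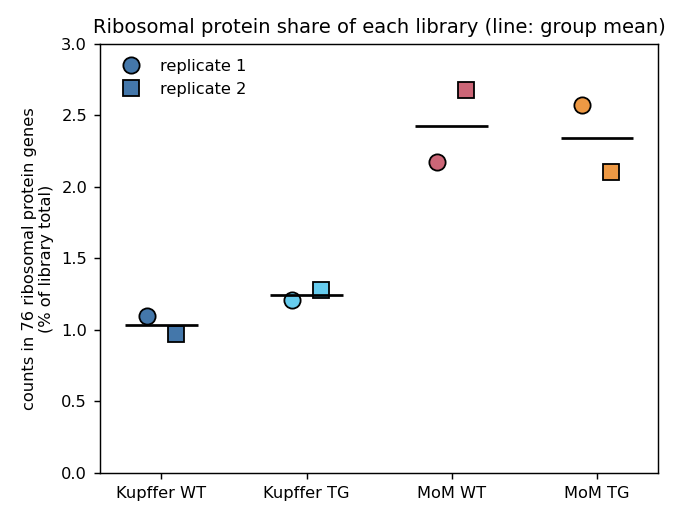
Counts in the 76 ribosomal protein genes as a percent of each library's total (vertical axis) in the 4 groups; circles are replicate 1, squares replicate 2 and lines group means. All 4 MoM libraries sit at 2.106% or more and all 4 Kupffer libraries at 1.282% or less.

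Averaged over both genotypes, 50 of the 76 members rose in MoM against Kupffer cells and 0 fell (edgeR quasi-likelihood test over all 8 libraries, Benjamini-Hochberg adjusted p under 0.05). Of all 15254 genes, 10.6% were called higher and 8.05% lower. The log2 fold change was positive for 75 of 76 members against 54.5% of all genes, and the members' median was 0.86, a 1.82-fold difference, against 0.09 for all genes. For 71 members the log2 fold change lay between 0.5 and 1.5. In 60 members all 4 MoM libraries lay above all 4 Kupffer libraries, which was so for 14.8% of all genes. Of the 50 that rose, 46 were among these 60. Among the 8726 genes at least as abundant as the lowest member, 12.7% were called higher.

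Of the small subunit genes 23 of 30 rose, with a median log2 fold change of 1.05, and of the large subunit genes 27 of 46, with a median of 0.81. A difference between the subunits was not tested. Of the 27 members with a log2 fold change over 1, 17 encode small subunit proteins.

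**Figure D2:**
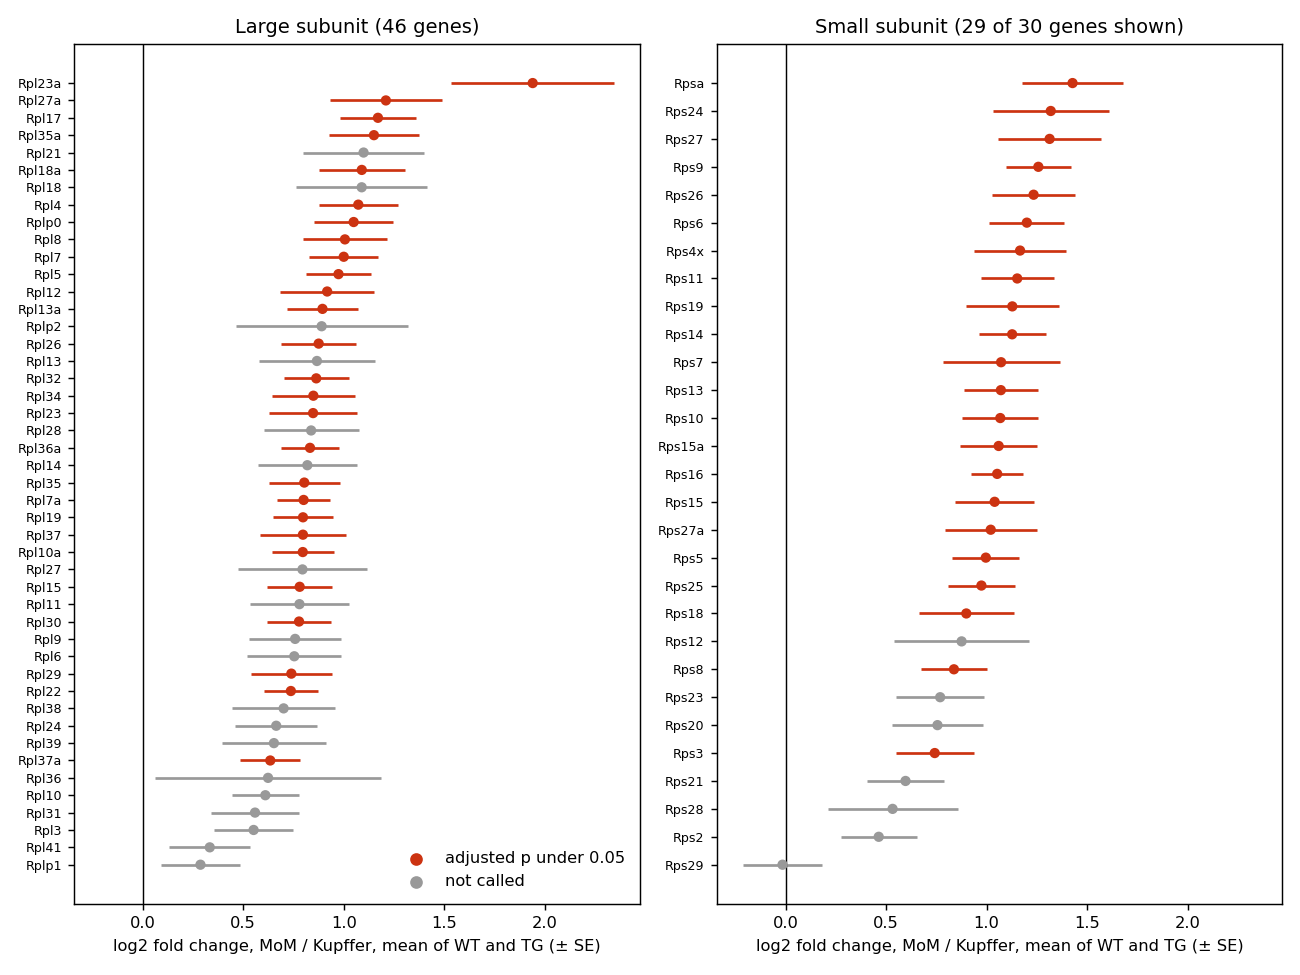
Log2 fold change of MoM over Kupffer cells, averaged over WT and TG, for the large subunit genes (left, 46) and small subunit genes (right, 29 of 30 shown); points are estimates, bars 1 SE, red marks adjusted p under 0.05. Nearly all points lie right of 0, from -0.01 for Rps29 to 1.94 for Rpl23a.

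Among small subunit genes, Rps16 (chr7:28350652-28353155, GRCm38) had the smallest adjusted p of all members. Its product sits near the decoding centre. Rps16 had 97.8 and 91.2 CPM in Kupffer WT, 115.7 and 119.7 CPM in Kupffer TG, 200.4 and 226.1 CPM in MoM WT and 236.4 and 212.7 CPM in MoM TG. All 4 MoM libraries stood well above all 4 Kupffer libraries, and replicates lay close together. Its log2 fold change was 1.05 ± 0.13 (SE; edgeR adjusted p = 0.00935).

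Rps9 (chr7:3703993-3706897), whose product helps keep decoding accurate, had 328.8 and 320.3 CPM in Kupffer WT and 404 and 369.7 CPM in Kupffer TG. In MoM it had 765 and 929 CPM in WT and 866 and 829 CPM in TG, again without overlap. Its log2 fold change was 1.26 ± 0.16 (edgeR adjusted p = 0.0104). Rpsa, which encodes the protein also known as laminin receptor, had 275.3 and 264.6 CPM in Kupffer WT, 354.7 and 509.5 in Kupffer TG, 665.3 and 1196.2 in MoM WT and 840.3 and 973.9 in MoM TG. The subsets did not overlap for Rpsa, but replicates differed more than for Rps16. Its log2 fold change was 1.43 ± 0.25 (edgeR adjusted p = 0.0186).

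Rps6, whose product is phosphorylated downstream of mTOR, rose by a log2 fold change of 1.20 ± 0.19 (edgeR adjusted p = 0.0151), from 166 to 239 CPM in Kupffer cells to 375 to 560 CPM in MoM. Rps14 rose by 1.13 ± 0.17 (edgeR adjusted p = 0.014), and Rps19, mutated in Diamond-Blackfan anaemia, by 1.13 ± 0.23 (adjusted p = 0.0254). Rps3, which lies at the mRNA entry channel and had the third highest CPM of the members, not corrected for length, rose less, by 0.74 ± 0.19 (edgeR adjusted p = 0.0447). Rps4x, the X-linked copy, rose by 1.17 ± 0.23 (adjusted p = 0.023), and Rps27a, made as a fusion with ubiquitin, by 1.02 ± 0.23 (adjusted p = 0.0306). Rps24 and Rps27 rose by 1.32 ± 0.29 and 1.31 ± 0.26 (edgeR adjusted p = 0.0294 and 0.0231), and both spread widely within a group. Rps27, whose pyrimidine run is printed above, had 34.4 and 69.0 CPM in MoM WT, 68.1 and 56.2 CPM in MoM TG, and 17.7 to 32.4 CPM in the Kupffer libraries.

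Rps29 (chr12:69157722-69159186), a small zinc-binding protein of the subunit's head, was the 1 member with a value below 0. It had 121.1 and 123.5 CPM in Kupffer WT, 132.8 and 86.1 CPM in Kupffer TG, 109.5 and 116.6 CPM in MoM WT and 137.0 and 95.0 CPM in MoM TG. The subsets overlapped over all libraries, but within WT both MoM libraries lay below both Kupffer libraries. The log2 fold change was -0.01 ± 0.20 (edgeR adjusted p = 0.965), and its sign turned with the scaling and with single libraries left out, reaching 0.13 when libraries were scaled by total counts alone.

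The stalk genes differed among themselves. Rplp0 (chr5:115559467-115563727), the stalk's base and the member with the highest CPM, had 651 and 572 CPM in Kupffer WT, 756 and 647 CPM in Kupffer TG, 1166 and 1390 CPM in MoM WT and 1635 and 1241 CPM in MoM TG. It rose by a log2 fold change of 1.05 ± 0.20 (edgeR adjusted p = 0.0209), with no overlap between subsets. Rplp1, whose product binds the stalk base as a dimer with that of Rplp2, had 323 and 339.8 CPM in Kupffer WT, 423.5 and 335.1 CPM in Kupffer TG, 463.7 and 440.2 CPM in MoM WT and 501.3 and 326.7 CPM in MoM TG. The subsets overlapped, and the log2 fold change of 0.29 ± 0.19 did not pass (edgeR adjusted p = 0.334). Rplp2 had 97.6 and 86.4 CPM in Kupffer WT, 116.8 and 50.5 CPM in Kupffer TG, 204.1 and 116.6 CPM in MoM WT and 243.7 and 86.0 CPM in MoM TG. Its 2 replicates differed more than 2-fold in both TG groups, and the log2 fold change of 0.89 ± 0.43 did not pass (edgeR adjusted p = 0.189).

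Among large subunit genes, Rpl5 and Rpl11 encode proteins that bind 5S rRNA and, when ribosome assembly is disturbed, the p53 regulator Mdm2. Rpl5 rose by a log2 fold change of 0.97 ± 0.16 (edgeR adjusted p = 0.017), from 139 to 182 CPM in Kupffer cells to 275 to 399 CPM in MoM. Rpl11 had 65.6 to 104 CPM in Kupffer cells and 116 to 198 CPM in MoM, and its log2 fold change of 0.78 ± 0.24 missed the threshold (adjusted p = 0.071). Rpl4, lining the exit tunnel, rose by 1.07 ± 0.20 (edgeR adjusted p = 0.0197), with 462 to 710 CPM in Kupffer cells and 983 to 1357 CPM in MoM. Rpl13a and Rpl22 rose by 0.89 ± 0.17 and 0.74 ± 0.13 (edgeR adjusted p = 0.023 and 0.0192). Rpl10, which completes the peptidyl transferase region late in assembly, stood at 0.61 ± 0.17 (edgeR adjusted p = 0.0507), and Rpl38, known for its part in translating Hox mRNAs, at 0.70 ± 0.26 (adjusted p = 0.104).

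Rpl23a (chr11:78180932-78183584), near the exit of the tunnel, had the largest log2 fold change of the members, 1.94 ± 0.40 (edgeR adjusted p = 0.0264). It had 15.9 and 16.8 CPM in Kupffer WT, 19.0 and 54.2 CPM in Kupffer TG, 91.6 and 124.4 CPM in MoM WT and 51.9 and 111.6 CPM in MoM TG. Kupffer TG replicate 2 overlapped the lowest MoM library. Rpl41, the smallest ribosomal protein, had 156.3 to 222.7 CPM in Kupffer cells and 195.5 to 294.0 CPM in MoM, and stood at a log2 fold change of 0.33 ± 0.20 (edgeR adjusted p = 0.285). The 26 members not called, 19 of the large and 7 of the small subunit, had adjusted p values from 0.0503 to 0.965. The threshold of 0.05 runs through a dense set: 8 members had adjusted p from 0.04 to 0.05 and 4 (Rpl21, Rpl10, Rpl28 and Rps23) from 0.05 to 0.06.

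**Figure D3:**
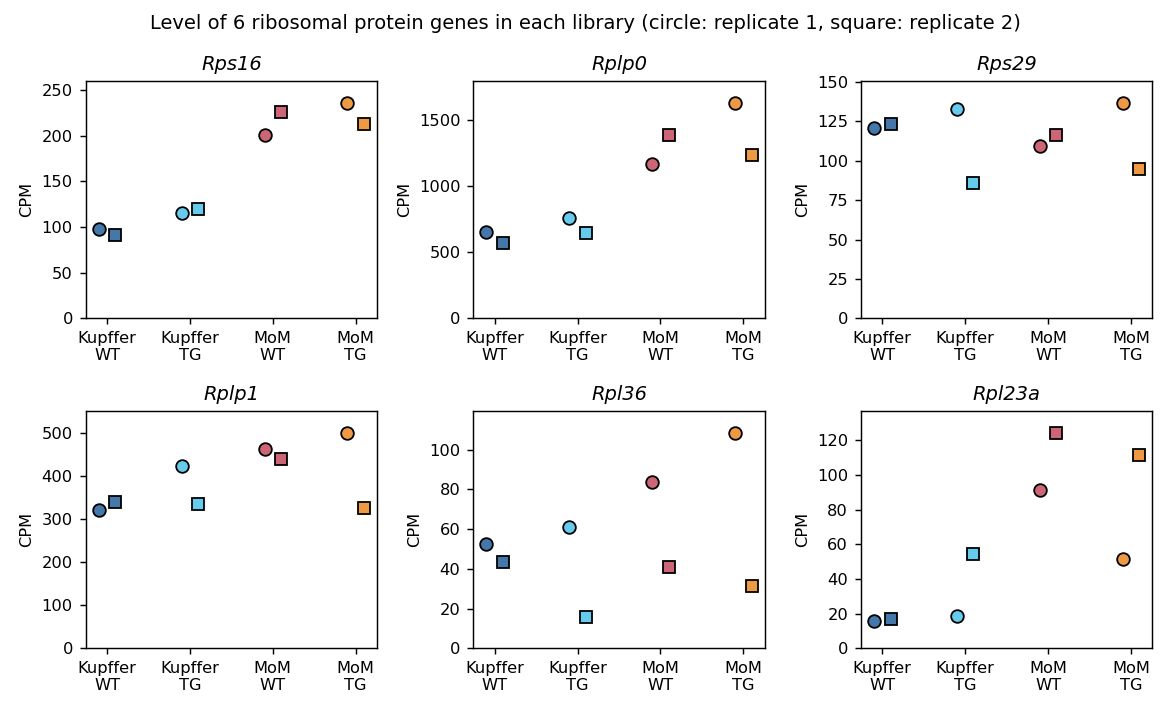
CPM of Rps16, Rplp0, Rps29, Rplp1, Rpl36 and Rpl23a in each library (circles replicate 1, squares replicate 2; each panel's axis starts at 0). Rps16 and Rplp0 separate the subsets, Rps29 and Rplp1 do not, and Rpl36 and Rpl23a differ most between replicates.

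The count of 50 rested on single libraries more than the direction did. Leaving out Kupffer TG replicate 1 gave 21, either Kupffer WT library 0, MoM TG replicate 1 gave 2, MoM TG replicate 2 gave 10 and MoM WT replicate 2 gave 26. The count was 36 without Kupffer TG replicate 2 and 47 without MoM WT replicate 1, and each of the 8 fits leaves fewer libraries to estimate the spread. They called 0.526% to 28.1% of all genes, the fewest without either Kupffer WT library or MoM TG replicate 1, at 0.952%, 0.526% and 2.33%. The members' median log2 fold change stayed between 0.72 and 0.99 in all 8, and the count was 43, with 31.7% of all genes called, without both Kupffer TG replicate 2 and MoM WT replicate 1.

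Markers of other cells were also compared between the subsets, averaged over genotypes. Over all genes, 10.6% were called higher in MoM and 8.05% lower, and 35.6% had an unadjusted p under 0.05. Summed CPM of 9 dendritic cell markers were 61.3 to 282 in Kupffer libraries and 1375 to 1876 in MoM libraries, with 5 of 9 called higher, and those of 7 B cell markers were 21.7 to 43.9 and 109 to 227, with 5 of 7 called higher. The 9 pan-macrophage markers summed to 16440 to 28820 CPM in Kupffer cells and 2569 to 10560 CPM in MoM, with 8 of 9 called lower. The neutrophil sum was 2.16 to 35.5 CPM against 57.9 to 3701 CPM, highest in MoM TG replicate 2, with 7 of 9 called higher. T cell sums were 32.0 to 241 CPM against 57.6 to 168 CPM, with 0 of 8 called and 0 at an unadjusted p under 0.05. NK cell sums were 62.5 to 204 CPM against 76.2 to 476 CPM, with 1 of 7 called higher. The cholangiocyte sum was 1.04 to 50.8 CPM against 18.8 to 346 CPM, highest in MoM WT replicate 2, with 2 of 7 called higher. Endothelial sums overlapped, 660 to 7132 CPM against 517 to 4545 CPM, with 0 of 10 called and 0 at an unadjusted p under 0.05, as did hepatocyte sums, 1020 to 2208 CPM against 192 to 1339 CPM, with 1 of 10 called lower. Of these lists, 5 neutrophil, 4 cholangiocyte, 1 NK cell and 1 monocyte marker were at 0 in at least 1 library, and none was at 0 in all libraries of a subset. The part of these cells in the ribosomal protein difference was not tested.

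Within WT alone, 1 of 76 members rose in MoM, Rps16, with a log2 fold change of 1.17 ± 0.18 (edgeR adjusted p = 0.0478), where 1.11% of all genes were called higher and 0.059% lower. The 1 called member is 1.32% of the 76, about the share of all genes called higher. With DESeq2 size factors or without the low-count filter 0 members were called, in fits that called 1.04% and 1.34% of all genes. The MoM pair of Rps16 lay above its Kupffer pair. Of the members 75 were positive against 55.1% of all genes, and their median was 0.91 against 0.11; 73 members lay above without overlap, as did 38.5% of all genes. Rps9 had 1.38 ± 0.23 (edgeR adjusted p = 0.0512) and Rps14 1.44 ± 0.24 (adjusted p = 0.0528). Only Rps29 of the 76 lay lower in MoM WT without overlap, at -0.11 (0.11 with libraries scaled by total counts alone), as did 29.7% of all genes. The count was 30 without MoM WT replicate 1 and Kupffer TG replicate 2 and 42 in DESeq2, in fits that called 17.1% and 19.3% of all genes.

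Within TG alone, 0 of 76 members passed in edgeR, where 2.5% of all genes were called, 1.84% higher and 0.656% lower, although all 76 log2 fold changes were positive against 47.9% of all genes. At an unadjusted p under 0.05 there were 51 members in TG and 50 in WT, against 25.4% of all genes in each, and DESeq2 called 19 in TG and 17.4% of all genes. Without both Kupffer TG replicate 2 and MoM WT replicate 1, 2 members and 13.6% of all genes were called. The median was 0.86 against -0.04 for all genes, and 66 members lay above without overlap and 0 below, against 29.1% and 23.8% of all genes. Rps16 stood at 0.93 ± 0.18 (edgeR adjusted p = 0.0551), Rps9 1.13 ± 0.23 (adjusted p = 0.0575) and Rpl5 1.03 ± 0.23 (adjusted p = 0.0697). The median was 0.63 without Kupffer TG replicate 2.

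The transgene's comparisons ask whether the cholangitis genotype goes with another level of these genes in each subset. In Kupffer cells 0 of 76 members passed in edgeR (0% of all genes) or in DESeq2, and 0 had an unadjusted p under 0.05, against 5.94% of all genes. Values were mostly higher in TG: 61 of 76 log2 fold changes were positive against 53.1% of all genes, with a median of 0.18 against 0.03. This rested on single libraries: the median was 0.07 with 43 positive without Kupffer TG replicate 1, 0.31 with 76 positive without Kupffer TG replicate 2, 0.34 with 73 positive without Kupffer WT replicate 1 and 0.08 with 50 positive without Kupffer WT replicate 2. Without both Kupffer TG replicate 2 and MoM WT replicate 1 it was 0.31, with 76 positive and 0 called. In 36 members the TG pair exceeded the WT pair without overlap, and in 0 it lay below, against 16.7% and 17.7% of all genes. The 2 TG libraries differed in this: replicate 1 lay above both WT libraries in 73 members and replicate 2 in 37. Rpl36a, on the X chromosome, had 16.6 and 16.8 CPM in TG and 12.0 and 12.5 CPM in WT, a log2 difference of 0.44 ± 0.20 (edgeR adjusted p = 0.73). Rpl23a had 1.16 ± 0.56 and Rpsa 0.68 ± 0.35 at the same adjusted p. The lowest values, -0.32 for Rpl36, -0.22 for Rpl18 and -0.16 for Rps29, turned positive without Kupffer TG replicate 2, at 0.39, 0.21 and 0.17.

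In MoM 0 of 76 members passed in edgeR (0% of all genes) or in DESeq2, and 0 had an unadjusted p under 0.05, against 6.47% of all genes. The median was 0.09 against -0.04 for all genes, and 58 log2 fold changes were positive under the main scaling and 31 with libraries scaled by total counts alone, so no direction can be given. Without both Kupffer TG replicate 2 and MoM WT replicate 1 the median was -0.02 with 34 positive and 0 called, and leaving out 1 MoM library gave -0.08 (TG replicate 1), 0.26 (TG replicate 2), 0.0038 (WT replicate 1) and 0.17 (WT replicate 2). The TG pair exceeded the WT pair in 0 members and lay below it in 3, against 19.2% and 20% of all genes. These were Rpl22, Rpl36a and Rps14, Rpl22 being named after its values were seen. Rps14 had 462 and 460 CPM in TG and 561 and 564 CPM in WT, a log2 difference of -0.29 ± 0.23 (edgeR adjusted p = 0.855). Rpl39 had the largest positive value, 0.54 ± 0.37 (adjusted p = 0.827), with 66.4 and 38.7 CPM in TG and 31.7 and 40.8 CPM in WT, which overlap. Rps23 stood at 0.38 ± 0.31 and Rpl5 at 0.27 ± 0.23, and Rpl35a at -0.37 ± 0.31 and Rpl36a at -0.24 ± 0.20.

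The difference between the genotype effects, MoM minus Kupffer, was tested as an interaction. In edgeR 0 of 76 members passed (0% of all genes), 0 had an unadjusted p under 0.05 against 6.42% of all genes, and DESeq2 called 0. The median was -0.12, as for all genes in the same fit, with 31 of 76 positive against 43.5%. Neither sign nor size held: leaving out 1 library gave medians from -0.30 (without MoM TG replicate 1) to 0.09 (without MoM TG replicate 2), and without both Kupffer TG replicate 2 and MoM WT replicate 1 the median was -0.34 against 0.04 for all genes, with 13 of 76 positive. Rpl36a came closest, at -0.68 ± 0.29 (unadjusted p = 0.0533, edgeR adjusted p = 0.626): TG lay above WT in Kupffer cells and below it in MoM. Rpl23a stood at -1.56 ± 0.79 and Rpl35a at -0.96 ± 0.44, and Rpl39, Rpl18 and Rps23 at 0.62, 0.59 and 0.36. The authors' deposited table for TG against WT, which does not name the subset, held 179 genes and 0 of the 76 members. The files hold 24786 gene symbols, so with 179 listed this says little about the members.

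A second pattern lay within the members and followed libraries, not the labelled groups. In Kupffer TG, MoM TG and MoM WT, replicate 2 differed from replicate 1 in its mix of ribosomal protein mRNAs, and in much the same way. Rpl36, a small protein of the large subunit, was the most uneven: its log2 difference, replicate 2 minus replicate 1, was -1.91 in Kupffer TG, -1.76 in MoM TG and -1.03 in MoM WT, against -0.28 in Kupffer WT. In replicates 1 and 2, Rpl36 had 61.0 and 15.9 CPM in Kupffer TG, 108.5 and 31.6 CPM in MoM TG, 84.0 and 40.9 CPM in MoM WT, and 52.6 and 43.3 CPM in Kupffer WT. Rplp2 followed, with -1.20, -1.50, -0.81 and -0.18 in the same order. Rpl23a went the other way, with 1.49, 1.10, 0.44 and 0.08, as did Rpl21 with 0.68, 0.71, 0.97 and -0.08, and Rpl27a with 0.88, 0.50, 0.73 and -0.25. These genes are named after their values were seen. A copy of Rplp2, Rplp2-ps1, did not follow it throughout. In replicates 1 and 2 the copy had 145 and 129 CPM in Kupffer TG and 288 and 227 CPM in MoM TG. In MoM WT it had 223 and 358 CPM, and in Kupffer WT 126 and 111 CPM. The part of read assignment between genes and their copies in this pattern was not tested.

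Across the 76 members, Spearman's correlation between these replicate differences was 0.91 for Kupffer TG with MoM TG, 0.80 for Kupffer TG with MoM WT and 0.85 for MoM TG with MoM WT, and 0.05 to 0.15 for Kupffer WT with each of the 3. The points are genes of the same libraries and share their depth, so the values are descriptions. Relative to the member median of the same difference, 30 members were lower and 29 higher in replicate 2 in all 3 groups. The SD of the differences over members was 0.53 in Kupffer TG, 0.49 in MoM TG and 0.43 in MoM WT, and 0.13 in Kupffer WT. The 3 replicate 2 libraries also had the most genes with a count, 17122, 17103 and 17674, against 15366 to 16720 in the other 5. The part of this in the profile was not tested. The rank correlation of the differences with annotated mRNA length was 0.21, 0.17 and 0.01 in Kupffer TG, MoM TG and MoM WT. With GC content it was -0.26, -0.27 and -0.20. In Kupffer WT, which lacks the profile, it was -0.202 with length and 0.315 with GC content.

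**Figure D4:**
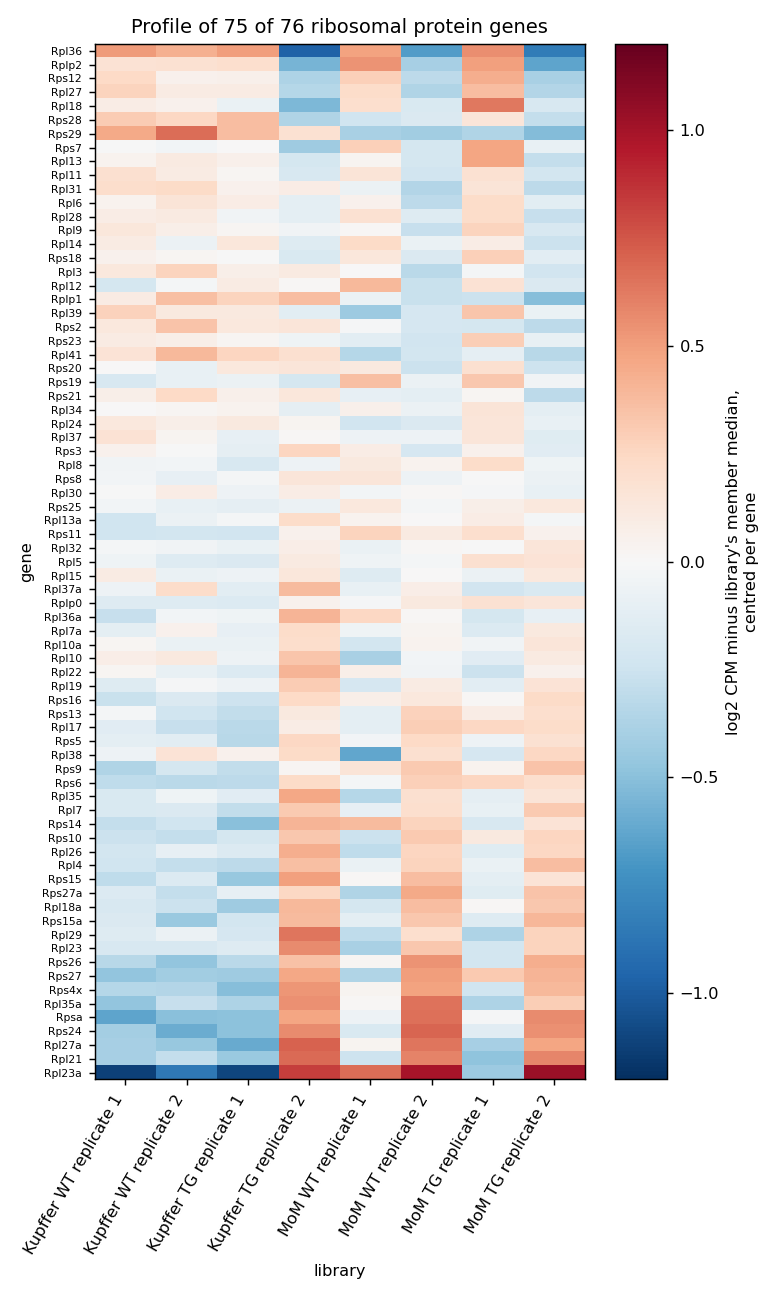
Each row is a gene, 75 of the 76 being shown, and each column a library; colour is log2 CPM minus that library's median over the members, centred per gene, with red high and blue low. Replicate 2 of Kupffer TG, MoM TG and MoM WT shows a shared profile, with Rpl36 and Rplp2 low and Rpl23a high.

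Both subsets hold libraries of this profile, but not evenly: Kupffer TG replicate 2, and replicate 2 of both MoM groups. Rpl23a, Rpsa and Rps24, high in it, also had the largest log2 fold changes of MoM over Kupffer cells, 1.94, 1.43 and 1.32. Of members low in it, Rpl36 stood at 0.62 but Rpl18 and Rps7 at 1.09 and 1.07. The part of the profile in this ranking was not tested. Without the 3 libraries the count of members that rose in MoM was 66, of which 49 were among the 50, with 35 in WT and 33 in TG, while 30.6%, 16.3% and 20.1% of all genes were called, a choice made after seeing the data that leaves 1 library in 3 of the 4 groups. The lone libraries are then assumed to vary like the 2 of Kupffer WT.

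Levels were compared between genes per kilobase of annotated mRNA (GENCODE M21, GRCm38). For each gene the transcript of median length within its best annotation class was used. The members lie on 19 chromosomes, 14 of them on chromosome 7, and have mRNAs of 345 to 5130 bases with a median of 733. The median level per kilobase was 148 CPM in Kupffer cells and 244 CPM in MoM. In MoM the highest were Rps15 at 1129 and Rps9 at 1128 CPM per kilobase and the lowest Rpl37 at 27.3, a 41.3-fold range. The ranks were alike in both subsets, with a Spearman correlation of 0.98 over the 76 genes, whose levels come from the same libraries. For Rps15a and Rps20 the transcripts used have 5130 and 3706 bases. Shorter mRNAs would give levels above the 36.8 and 40.8 CPM per kilobase computed in MoM. Near-identical copies bear on the low end. Rpl37 had 11.4 to 29.6 CPM while Rpl37rt, a retrotransposed copy, had 119 to 285 CPM. Rplp2-ps1 had 111 to 358 CPM against 50.5 to 243.7 CPM for Rplp2. The sources used here do not state how the authors' counting treated reads that fit a gene and its copy, so the level of any member with such copies is uncertain.

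Several copies rose: Rpl37rt by a log2 fold change of 0.96 ± 0.14 (edgeR adjusted p = 0.0126), Rplp2-ps1 by 1.10 ± 0.20 (adjusted p = 0.0198) and Rpl14-ps1 by 0.93 ± 0.15 (adjusted p = 0.0166), as did Rpl34-ps1 and Rps15a-ps4. Others did not pass: Rps15a-ps6 stood at 1.01 ± 0.33 (adjusted p = 0.077), Rpl32l at 1.76 ± 0.85 (adjusted p = 0.19), Rpl31-ps12 at 0.90 ± 0.51 (adjusted p = 0.258) and Rps19-ps3 at 0.40 ± 0.65 (adjusted p = 0.693). Small nucleolar RNA genes, whose products guide chemical marks on ribosomal RNA, lie within 29 of the 76 members on the same strand, 56 in all. Of these 29 hosts 19 rose in MoM, with a median of 0.88, against 31 of the 47 other members, with a median of 0.84. The log2 fold change had a Spearman correlation of 0.17 with mRNA length and -0.12 with GC content over the members. Most members are short, 57 of them up to 1000 bases, and the 1140 other genes that short had a median of -0.01, with 10.4% called higher.

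Related genes outside the rule were read from lists, in the comparison averaged over genotypes. Over all genes, 10.6% were called higher there and 8.05% lower. Of 16 other TOP mRNAs, for elongation factors and their like, 11 rose in MoM and 0 fell, all 16 values were positive and the median was 0.79. Eif3f, a subunit of initiation factor 3, rose by 1.22 ± 0.15 (edgeR adjusted p = 0.0100), Eef1b2, the exchange factor of elongation factor 1, by 1.11 ± 0.15 (adjusted p = 0.012) and Hnrnpa1 by 1.10 ± 0.15 (adjusted p = 0.0118). Among 12 tested paralogs and relatives 3 rose and 0 fell, with a median of 0.43. Rps3a1, the small subunit gene whose symbol the rule misses, rose by 1.18 ± 0.19 (edgeR adjusted p = 0.0158), Rps27rt by 1.30 ± 0.28 (adjusted p = 0.0291), and Rack1, a scaffold on the small subunit, by 0.76 ± 0.18 (adjusted p = 0.0358). The ubiquitin-like fusion gene Fau stood at 0.62 ± 0.43 and did not pass. The paralogs Rpl22l1, Rps27l and Rpl7l1 stood at 0.01 ± 0.50, 0.05 ± 0.25 and -0.13 ± 0.13, and Rpl36al and Rps4l at 0.31 ± 0.15 and -0.58 ± 0.18. Rpl39l and Rpl3l had under 1 CPM in the mean, and Rpl10l had 0 counts in all libraries.

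Of 42 ribosome biogenesis genes 7 rose and 0 fell, with a median of 0.21. Over all genes, 10.6% were called higher, 8.05% lower and 35.6% had an unadjusted p under 0.05, with a median of 0.09. Polr1c, shared by RNA polymerases I and III, rose by 1.01 ± 0.16 (edgeR adjusted p = 0.0155), Taf1d by 0.99 ± 0.22 (adjusted p = 0.0298) and Mrto4 by 0.90 ± 0.20 (adjusted p = 0.0305). Of 17 genes of translation control by mTOR 0 passed in edgeR and 1 had an unadjusted p under 0.05, with a median of -0.05. Of 10 genes for Myc and other regulators 1 rose, about the share of all genes. It was Mxd1, a Myc antagonist, at 1.55 ± 0.42 (edgeR adjusted p = 0.0498), while Myc itself stood at -0.22 ± 0.18. The 78 mitochondrial ribosomal proteins, which build the separate ribosome of that organelle, had a median of -0.05, with 1 higher (Mrpl30) and 3 lower (Mrpl3, Mrps6 and Mrpl42).

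**Figure D5:**
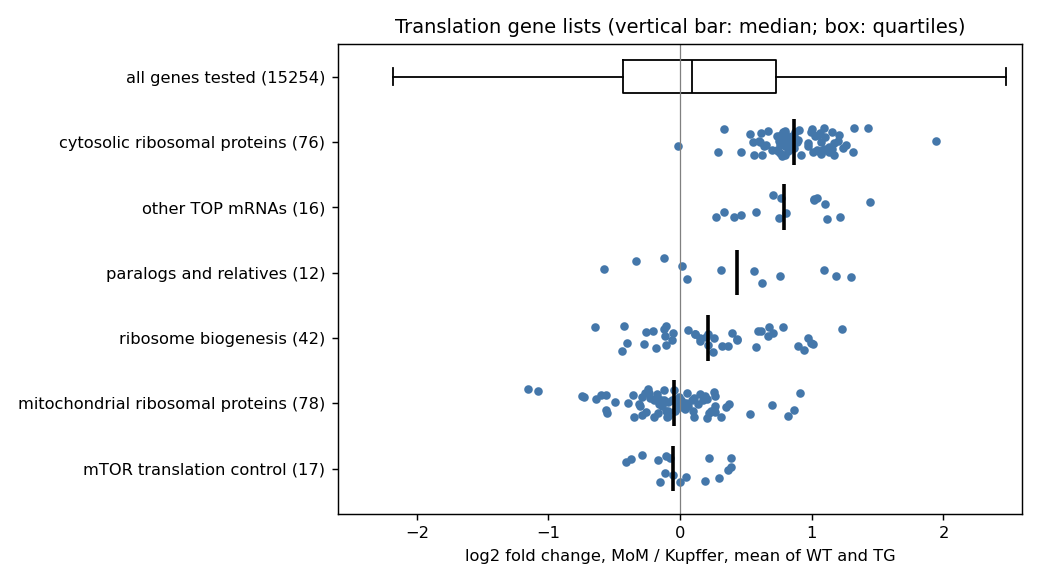
Log2 fold change of MoM over Kupffer cells, averaged over WT and TG, for each gene (points) of 6 lists with the list's median (bar), and a box of quartiles for all 15254 genes. The ribosomal proteins (median 0.86) and other TOP mRNAs (0.79) lie right of 0, and the mitochondrial ribosomal proteins (-0.05) straddle it.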

How the data were processed

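RNA from 8 libraries in 4 groups was analysed, with groups and replicate numbers taken from the sample titles. The deposited tables hold counts, whole numbers per gene symbol, and the submitters' processing notes name STAR 2.5.2b and mm10. The sources used here do not state the counter, the annotation or the strand setting. Between 65.0% and 68.0% of the counts below 20 were even numbers, so single counts may not be separate fragments. One count equalled 0.0309 to 0.0378 CPM. The authors also deposited a table of 179 genes comparing the genotypes, which was read only for its symbols. Per the file headers it holds a mean signal of normalized counts, a log2 fold change, a Wald statistic as a score, and p-values.

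All 8 libraries were fitted together in edgeR 4.0.16 (R 4.3.3): filterByExpr, TMM scaling, quasi-likelihood F-test, Benjamini-Hochberg adjustment over 15254 genes, called at adjusted p under 0.05. The fit had 4 residual degrees of freedom and a common biological coefficient of variation of 0.507. CPM are TMM-scaled, SE is the log2 fold change over the square root of F, and the averaged comparison is the mean of MoM against Kupffer cells in WT and TG. The script was tested on simulated data. Positions, mRNA lengths and snoRNA genes come from GENCODE M21 (76 of 76 members matched), promoters from RefSeq on GRCm38.p6.

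Members named are, per comparison, the 5 called with the largest change in each direction or, with fewer than 3 called, the 3 smallest p in each direction; 18 genes by role; the 3 members farthest above and below the median; the 3 highest and lowest by CPM; the paralogs; and up to 3 called genes of each other list. Members and lists were chosen with earlier results of these data known. Alternatives were DESeq2 1.42.0, its size factors, no low-count filter, the replicate number as a block, only the libraries compared, and libraries left out. Same-numbered libraries did not deviate together in every pair of groups (Pearson's r -0.14 to 0.62 over all genes). The extremes were Kupffer TG with MoM TG at 0.62 and Kupffer WT with MoM WT at -0.14. The numbers were therefore not used to pair libraries. Values of 1 member and 1 paralog are not reported singly here; both count in the totals.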

Additional observations from a re-analysis of the deposited data

How the results depend on the processing

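All counts below are of the 76 members called in edgeR unless another tool is named. In the averaged comparison the main fit called 18.7% of all genes. The alternatives with all libraries called 14.1% (no low-count filter), 19% (DESeq2 size factors), 30% (DESeq2), 20.8% (replicate block) and 20.6% (no TMM). For MoM against Kupffer cells averaged over genotypes, 50 were called in the main analysis, and the alternatives with all libraries gave 40 (no low-count filter), 41 (DESeq2 size factors), 60 (DESeq2), 63 (replicate block) and 64 (no TMM), every called member being higher in MoM; leaving out 1 library gave 0 to 47. Within WT, 1 was called, and the count was 0 with DESeq2 size factors, 0 without the low-count filter, 9 with only the 4 libraries compared, 42 in DESeq2, 30 without Kupffer TG replicate 2 and MoM WT replicate 1, 5 without TMM and 35 without the 3 libraries of the other profile, in fits that called 1.04%, 1.34%, 10.9%, 19.3%, 17.1%, 1.65% and 16.3% of all genes; leaving out 1 library gave 0 to 15. Within TG, 0 were called, and the count was 19 in DESeq2, 2 without Kupffer TG replicate 2 and MoM WT replicate 1, and 33 without the 3 libraries, in fits that called 17.4%, 13.6% and 20.1% of all genes; leaving out 1 library gave 0 to 4. The median log2 fold change within TG, 0.86, was 0.63 without Kupffer TG replicate 2 and MoM WT replicate 1, and leaving out 1 library gave 0.63 to 0.97. The median for TG against WT in MoM, 0.09, was 0.38 without the 3 libraries, and leaving out 1 library gave -0.08 to 0.26. The cause of these changes was not tested. Where libraries were left out, fewer were fitted.

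The replicate block left the WT count at 1 and the TG, genotype and interaction counts at 0. A block with the MoM WT numbers crossed, chosen after seeing the data, gave 0 in WT. Scaling by library size alone, also chosen after seeing the data, moved the median of all genes from 0.09 to 0.22 in the averaged comparison and that of the members from 0.86 to 1.01. It moved the median of all genes from -0.04 to -0.15 for TG against WT in MoM and that of the members from 0.09 to -0.01.

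Single genes turned sign as follows. For TG against WT in Kupffer cells, Rps29, Rpl18 and Rpl36 stood at 0.17, 0.21 and 0.39 without Kupffer TG replicate 2 and MoM WT replicate 1, and at 0.14, 0.19 and 0.37 without the 3 libraries; leaving out 1 library gave -0.53 to 0.17, -0.77 to 0.21 and -1.63 to 0.39. Rps29 in MoM against Kupffer cells stood at 0.11 in WT and 0.13 averaged without TMM, and leaving out 1 library gave -0.23 to 0.12 for the average. For TG against WT in MoM, leaving out 1 library gave -0.033 to 0.71 for Rps23 and -0.70 to 0.071 for Rpl35a. For the interaction it gave -0.11 to 1.15 for Rpl18 and -0.051 to 0.69 for Rps23. Each member had at least 226 counts in every library, and there were 2 libraries per group; how depth bears on precision was not tested.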
